A study of Mus musculus with 9 samples.

Results

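The genes described here encode the collagens, the laminins and a small set of other extracellular matrix and meningeal products in the brain of mice with cerebral venous sinus thrombosis (CVST). They were chosen by symbol: every gene named as a collagen chain (Col, a number, a and a number) or as a laminin chain (Lama, Lamb or Lamc with a number), together with Dcn, Lum, Bgn, Fn1, Sparc, Postn, Igf2 and Igfbp2, kept where at least 3 of the 9 libraries held 10 or more counts. The rule returned 63 of the 20731 genes counted, namely 44 collagen genes, 11 laminin genes and all 8 of the others. No gene that matched by name was lost to the count rule. Of the 63, 51 had 10 or more counts in every library and 24 had 100 or more.

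The study asked what blocking lymphatic drainage from the meninges adds to brain injury after CVST, and what 4-phenylbutyric acid (4-PBA), a chemical chaperone that relieves endoplasmic reticulum stress, changes in that setting. All 9 mice were male C57BL/6J animals aged 8 to 10 weeks in which ferric chloride had been applied to the superior sagittal sinus to clot it. The CVST group (3 mice) had the thrombosis alone, and the CVST+Ligation group (3 mice) also had the deep cervical lymph nodes tied off. The 4-PBA group (3 mice) had thrombosis, ligation and 4-PBA. RNA was taken on day 2 after modelling and sequenced as 1 library per mouse. 4-PBA was given into the peritoneum at 100 mg/kg, 30 minutes before modelling according to the methods but after ligation according to the series description. Control mice received the solvent, without a statement of which groups that covers. No unoperated or sham brain and no 4-PBA group without ligation is among the 9 libraries, so each comparison is between injured brains. The tissue is labelled brain, while the series description speaks of cortex.

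Collagens are trimers of alpha chains that are wound together in the endoplasmic reticulum, where prolines are hydroxylated, and are then trimmed and crosslinked outside the cell. In the brain they are scarce within the parenchyma. Fibrillar collagens lie mainly in the meninges and around larger vessels, where fibroblasts make them, and type IV collagen and the laminins form the basement membranes that surround every vessel and underlie the glial limit of the brain. Laminins are heterotrimers of an alpha, a beta and a gamma chain.

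Total counts per library ranged from 18100739 to 25091498 (median 23358349), and the 63 genes took 0.117% to 0.206% of them. Marker genes of brain regions differed between the groups. Summed levels in FPKM (fragments per kilobase of gene length, scaled to the reads of the library) of 10 cortical neuron markers were 3843 to 4569 in CVST, 2940.0 to 3367 in CVST+Ligation and 2112 to 2424 in 4-PBA, while 12 thalamic markers summed to 63.4 to 109, 221 to 772 and 390.1 to 678, and 14 midbrain and brainstem markers to 13.3 to 15.5, 111 to 315 and 149 to 161. CVST+Ligation replicate 2 held 1803 FPKM of cerebellar markers against 169 to 328 in the other 8 libraries. The 15 choroid plexus markers summed to 1929.9 to 2188 FPKM in CVST, to 279, 186 and 1988 in CVST+Ligation and to 7530.1, 1646 and 1172 in 4-PBA, so that 4-PBA replicate 1 was the highest library and CVST+Ligation replicates 1 and 2 were the lowest. The part that these differences in tissue have in the matrix genes was not tested, and in bulk tissue fewer cells of a type and less RNA per cell cannot be told apart.

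**Figure D1:**
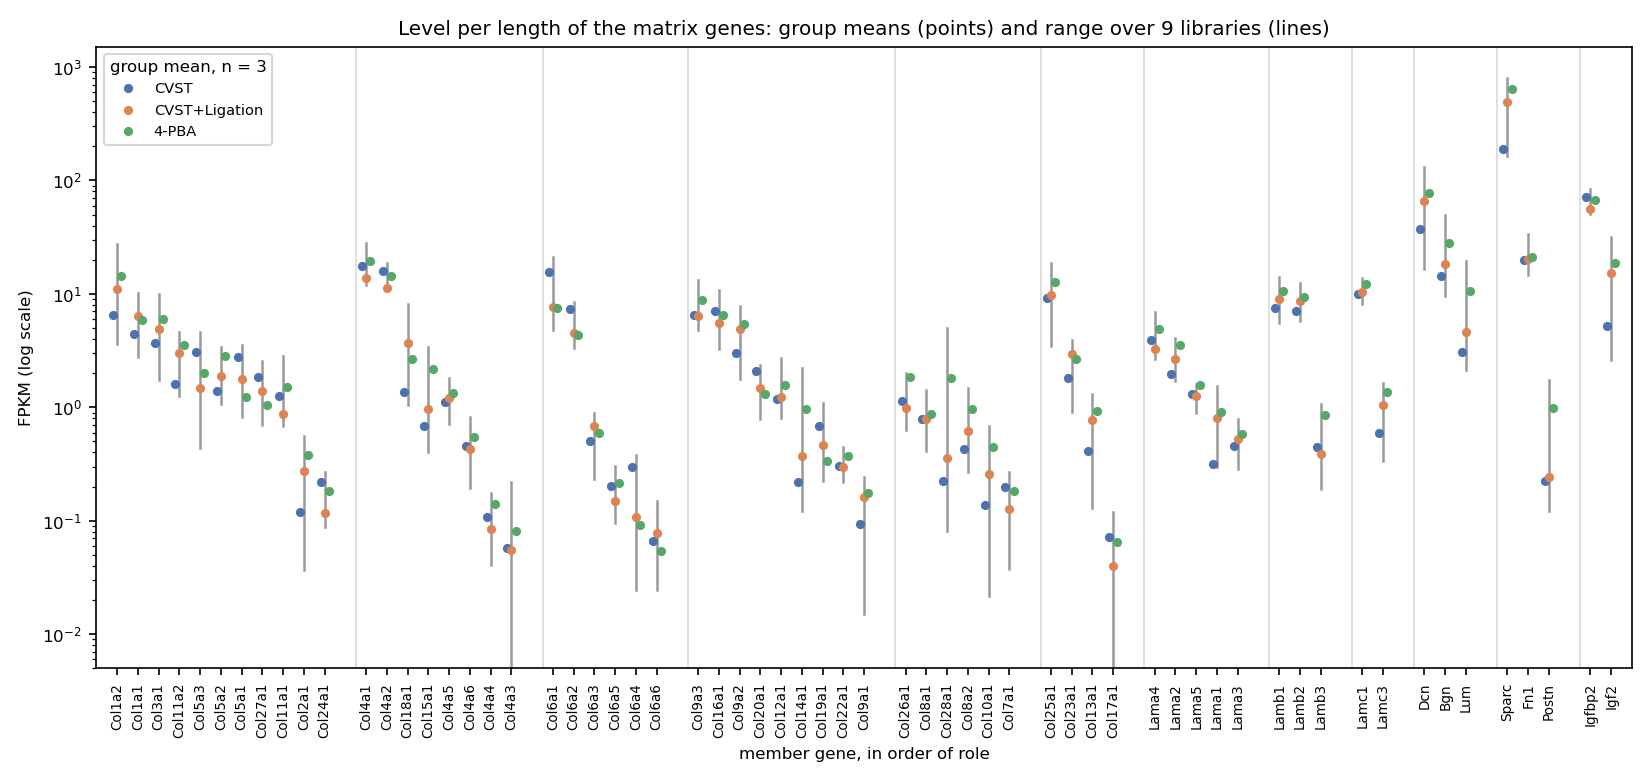
Level per length of the matrix genes reported by name, in FPKM (y axis, log scale), in order of role along the x axis. Points are group means of 3 libraries and lines span the lowest to the highest of the 9 libraries, with levels under the axis drawn at its lower end. Sparc stands above all other genes in each group, and 12 genes have a mean of 10 FPKM or more.

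Compared per length, Sparc was by far the most abundant transcript, with a mean over the 9 libraries of 443 FPKM. The length used matches an annotated coding sequence for 31 of the 63 genes, Sparc among them. Untranslated parts of transcripts may thus be left out of it, so the ranking between genes is approximate. Igfbp2 (64.9 FPKM), Dcn (60.01 FPKM), Fn1 (20.6 FPKM) and Bgn (20.3 FPKM) followed. Among the chains of basement membranes, Col4a1 (17.1 FPKM), Col4a2 (13.9 FPKM) and Lamc1 (10.9 FPKM) led, and among the fibrillar chains Col1a2 (10.6 FPKM). In all, 12 genes had a mean of 10 FPKM or more, 27 lay from 1 to 10 FPKM and 24 lay below 1 FPKM, as the plot of levels per length shows. The 63 genes summed to 462 to 533 FPKM in CVST, 606 to 1196 in CVST+Ligation and 941 to 1169.5 in 4-PBA. Without Sparc the sums were 299 to 325, 271 to 396 and 359 to 487 FPKM, so the higher totals lay mainly in that gene. The 44 collagens together summed to 113 to 138, 95.5 to 140.4 and 123 to 168 FPKM, with overlapping ranges.

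Differences between groups were tested on the counts with edgeR's quasi-likelihood test, fitted to all 14746 genes that passed its expression filter. Of the 63 genes 62 entered the fit and Col4a3, a sparse one, did not. A gene is said to have risen or fallen, or to have passed, where the unadjusted p was below 0.05, and the p printed beside it is the one adjusted over all genes. With Benjamini-Hochberg adjustment over all 14746 genes, no matrix gene reached an adjusted p below 0.05 in any of the 3 comparisons, against 0.0203%, 0% and 0.122% of all genes in the order used below. Unadjusted calls among the 62 numbered 8 in CVST+Ligation against CVST, 3 in 4-PBA against CVST+Ligation and 16 in 4-PBA against CVST. DESeq2's Wald test gave 10, 5 and 20, beside 11.4%, 3.87% and 17.6% of all genes, and 1, 0 and 7 after adjustment, beside 264, 22 and 855 of all 14746 genes. Levels per library are TMM-normalized counts scaled to library size (CPM), listed from replicate 1 to replicate 3 of each group. These levels serve for comparing libraries, not genes. An exact permutation test of 3 libraries against 3 cannot go below p = 0.1, so none was used for single genes.

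In CVST+Ligation against CVST, 8 of 62 matrix genes passed (12.9%), beside 9.64% of all genes. The 4 that rose were Sparc, Lama1, Col11a2 and Col18a1 (5.47% of all genes rose), and the 4 that fell were Col6a1, Col6a2, Col4a2 and Igfbp2 (4.18% of all genes fell). The median log2 fold change of the 62 was 0.07 and that of all genes 0.00, with 34 of 62 above 0 beside 50.3% of all genes. The 3 CVST+Ligation libraries lay above all CVST libraries for 1 gene, Sparc, and below them for 9 genes, beside 6.61% and 7.21% of all genes. The 9 were Col6a1, Col6a2, Col4a1, Col4a2, Col5a1, Col11a1, Col20a1, Col24a1 and Igfbp2. Without CVST replicate 1 the count of calls was 5 (7.94%, beside 8.42% of all genes). With single libraries left out, which brought 62 or 63 of the genes into the fit, the median ran from -0.09 without CVST+Ligation replicate 2 to 0.21 without CVST replicate 1, and with gene length taken into account it was -0.05, so no direction of the group as a whole is given.

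In 4-PBA against CVST+Ligation, 3 genes passed (4.84%, beside 3.23% of all genes). Postn and Col15a1 rose, as did 1.81% of all genes, and 1 gene fell, as did 1.42%. Of the fitted log2 fold changes 49 of 62 were above 0, beside 47% of all genes, with a median of 0.30 beside -0.02. The groups did not overlap for 3 genes, beside 7.73% of all genes. All 3 (Lama5, Postn and Col26a1) were higher in 4-PBA, as were 3.51% of all genes, and none was lower, beside 4.22%. The share of all called genes that rose was 56.1% here, 66.1% with total counts in place of TMM and 45.6% with gene length taken into account, with the median of the 62 at 0.33 and 0.32. The median was 0.14 without CVST+Ligation replicate 3, with 41 of 63 above 0, and 0.47 without CVST+Ligation replicate 2, with 55 of 63. Without 4-PBA replicate 2 it was 0.21, with 40 of 63 above 0. Without CVST+Ligation replicate 2 the count of calls was 14 (22.2%), beside 10.01% of all genes. It was 8 without 4-PBA replicate 1 (12.9%, beside 3.34%), 7 without 4-PBA replicate 3 (11.1%, beside 3.99%), and 1 without CVST replicate 3 or CVST+Ligation replicate 1 (1.59%, beside 4.04% and 2.25%).

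In 4-PBA against CVST, 16 genes passed (25.8%), beside 15.4% of all genes. Sparc, Postn, Col15a1, Col11a2, Lum, Lama2, Lama1, Col5a2, Lamc3, Col14a1 and Col28a1 rose, 11 in all (8.07% of all genes rose), and 5 fell (7.33% of all genes fell), Col5a1, Col6a1, Col6a2 and Col6a4 among them. Fitted changes were above 0 for 46 of 62 genes, beside 48.9% of all genes, and their median was 0.33, beside -0.01. The groups did not overlap for 13 genes that were higher and 5 that were lower in 4-PBA, beside 12.3% and 11.5% of all genes. Both of these comparisons with 4-PBA use the same 3 treated libraries, and both comparisons with CVST use the same 3 CVST libraries, so calls shared between them are not separate evidence. The share of all called genes that rose depended on the scaling, at 52.4% here, 65.1% with total counts in place of TMM and 37.8% with gene length taken into account, while the median of the 62 was 0.40 and 0.18. Without 4-PBA replicate 2 the median was 0.22, with 43 of 63 above 0, and called matrix genes numbered 11 (17.5%, beside 10.7% of all genes). They numbered from 13 to 22 when any other library was left out, beside 10.1% to 19.1% of all genes.

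**Figure D2:**
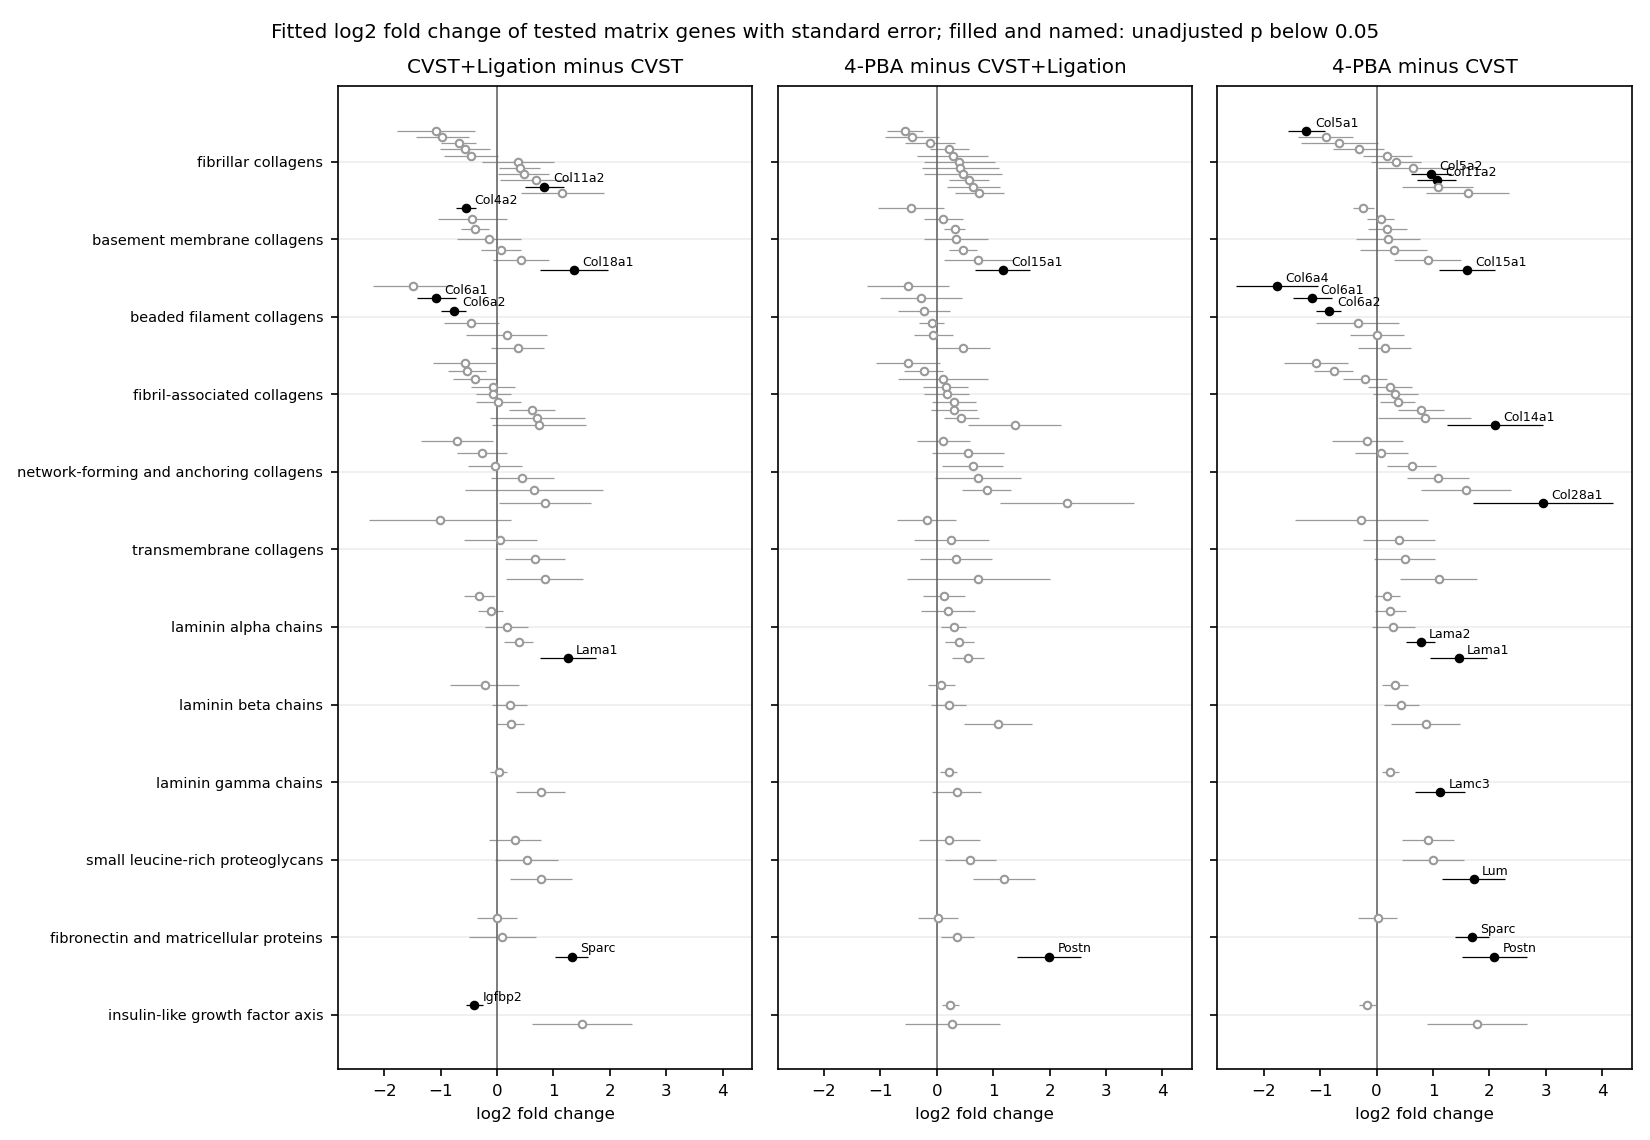
Fitted log2 fold change (x axis) of the tested matrix genes reported by name, with its standard error (bars), by role (y axis), in the 3 comparisons. Filled, named points had an unadjusted p below 0.05. Among these, Col18a1 and Sparc lie furthest right in CVST+Ligation minus CVST, Postn in 4-PBA minus CVST+Ligation and Col28a1 in 4-PBA minus CVST. Open points did not pass.

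The smallest p of the 62 in both comparisons with CVST belonged to Sparc, which encodes osteonectin, a secreted glycoprotein that binds collagen and calcium and that endothelial cells and glia make in the brain. Its level was 167, 196 and 221 CPM in CVST, 347, 774 and 342 CPM in CVST+Ligation and 569, 676 and 640.1 CPM in 4-PBA. Every CVST library lay below every other library, and CVST+Ligation replicate 2 was the highest of all and more than 2 times each of the other libraries of its group. Sparc rose 2.51-fold in CVST+Ligation against CVST (log2 fold change 1.32 ± 0.30, adjusted p = 0.281) and 3.23-fold in 4-PBA against CVST (log2 fold change 1.69 ± 0.30, adjusted p = 0.0518), where ± gives the standard error. Left out, CVST+Ligation replicate 2 took the first value to 0.82, still past the threshold, and the second stayed between 1.60 and 1.78 under all 19 alternatives. Between 4-PBA and CVST+Ligation the fitted difference was 0.37 ± 0.29 (adjusted p = 1), so it did not pass there. The thalamic and midbrain marker sums were likewise lowest in the 3 CVST libraries and highest in CVST+Ligation replicate 2. Their part in the Sparc difference was not tested.

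**Figure D3:**
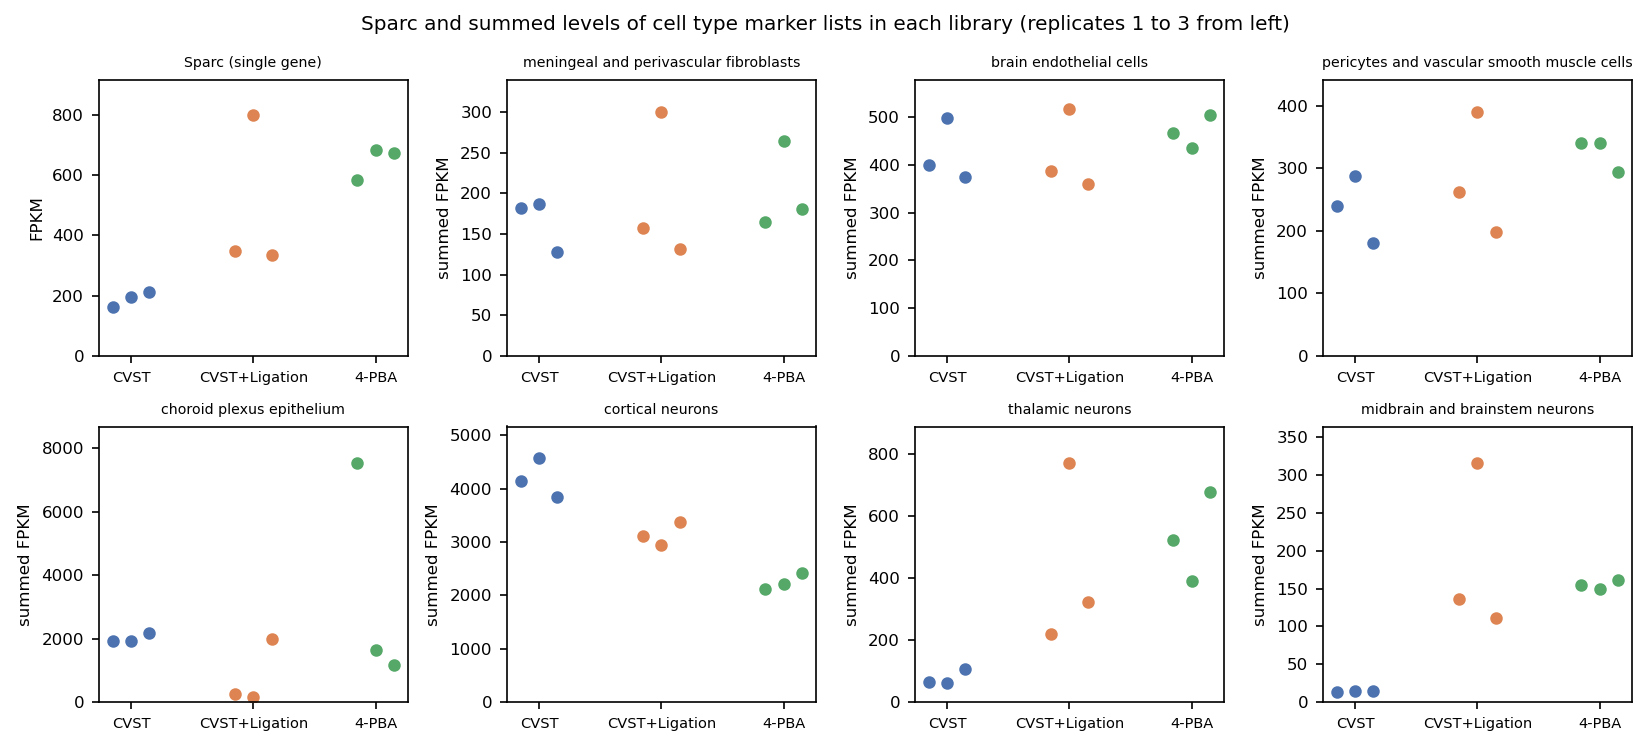
Sparc (FPKM, first panel) and the summed FPKM of 7 cell type marker lists in each of the 9 libraries, by group, with replicates 1 to 3 from left to right. Sparc and the thalamic and midbrain sums are lowest in the 3 CVST libraries, the endothelial sums overlap between groups, and in the choroid plexus panel 1 library of 4-PBA stands highest at 7530.1 FPKM and 2 libraries of CVST+Ligation lowest.

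The cells that make most of these proteins were read from marker lists. The 13 endothelial markers summed to 375 to 497 FPKM in CVST, 360.0 to 517 in CVST+Ligation and 436 to 505 in 4-PBA, and by the same edgeR test none of the 13 passed in any comparison. The 25 markers of meningeal and perivascular fibroblasts summed to 128 to 187, 132 to 299.7 and 165 to 265 FPKM, with the 2 highest sums in CVST+Ligation replicate 2 (299.7) and 4-PBA replicate 2 (265). Of 23 fibroblast markers tested, Aspn and Pi16 rose in CVST+Ligation against CVST, Ogn rose in 4-PBA against CVST+Ligation, and Pi16, Ogn, Aspn and Pdgfra rose in 4-PBA against CVST (8.7%, 4.35% and 17.4% of the list, beside 5.47%, 1.81% and 8.07% of all genes that rose). Of the 23 fitted changes 21 were above 0 in CVST+Ligation against CVST (median 0.54), 14 were below 0 in 4-PBA against CVST+Ligation (median -0.09) and 19 were above 0 in 4-PBA against CVST (median 0.42). None of the 25 was at 0 in every library. Of the 15 choroid plexus markers 9 rose in 4-PBA against CVST+Ligation (60%, beside 1.81% of all genes, with a median log2 fold change of 1.70), 5 rose in 4-PBA against CVST (33.3%, beside 8.07%, median 1.39) and 1 rose in CVST+Ligation against CVST (median -0.56). Of 8 cerebellar markers tested, 7 rose in CVST+Ligation against CVST (beside 5.47% of all genes) and 4 fell in 4-PBA against CVST+Ligation (beside 1.42%). Of 14 pericyte and smooth muscle markers, Myh11 and Acta2 rose in CVST+Ligation, and these with Cspg4 rose in 4-PBA, both against CVST (14.3% and 21.4%, beside 5.47% and 8.07% of all genes), with sums of 181 to 288, 199 to 391 and 294 to 341 FPKM. Pdgfra and Cspg4 are also on the list of oligodendrocyte precursor markers, of which 9 of 10 rose in 4-PBA against CVST. Their calls are thus not specific to fibroblasts or pericytes.

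Fibronectin and periostin complete the group of adhesive and matricellular proteins. Fn1, encoding the fibronectin that cells grip through integrins, measured 149, 195 and 120.0 CPM in CVST, 132, 215 and 116 CPM in CVST+Ligation and 109.9, 113 and 247 CPM in 4-PBA. The ranges overlapped throughout, with the highest level in 4-PBA replicate 3, and no comparison passed (fitted log2 fold changes -0.005, 0.02 and 0.02). Postn encodes periostin, a protein of fibroblasts that joins collagen to other matrix and is made in scars. It was among the sparsest genes at 0.722, 0.665 and 0.325 CPM in CVST, 0.785, 0.618 and 0.440 CPM in CVST+Ligation and 1.90, 4.33 and 1.14 CPM in 4-PBA. All 3 treated libraries lay above the other 6, and the highest, 4-PBA replicate 2, was more than 2 times the next. Postn rose 3.97-fold in 4-PBA against CVST+Ligation (log2 fold change 1.99 ± 0.58, adjusted p = 1) and 4.24-fold against CVST (log2 fold change 2.08 ± 0.58, adjusted p = 0.135). It passed in both comparisons whichever library was left out, with log2 fold changes of 1.29 and 1.39 without 4-PBA replicate 2.

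The sequence upstream of Postn is shown because this gene had the smallest p of the 62 between 4-PBA and CVST+Ligation. All 63 genes have a position in the RefSeq annotation of GRCm38.p6 and 45 have an upstream sequence there. Postn lies on chromosome 3, plus strand, and has 2 starts among these sequences. The 150 bases before the inner start, which is 1840 bases inside the RefSeq span, are at chr3:54360957-54361106 and carry a TATA box (TATAAA, in capitals):

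Postn: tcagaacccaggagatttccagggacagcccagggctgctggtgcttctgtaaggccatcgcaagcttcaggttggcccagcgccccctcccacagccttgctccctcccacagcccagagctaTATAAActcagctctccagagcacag

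Within 250 bases before 1 start per gene, the first listed and thus for Postn the outer one, and read on both strands, TATAAA occurred in 5 of the 45 matrix genes (11.1%), beside 13.0% of 27025 promoters. The letters of the GC box, GGGCGG, occurred in 25 of the 45 (55.6%), beside 32.9%, and those of the CCAAT box in 13 (28.9%), beside 34.5%. These are matches of letters and no measure of binding. The 30 bases directly before the start of Sparc, on the minus strand at chr11:55420081-55420110, overlap annotated exons and hold none of these motifs:

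Sparc: tttaggcaggagccccagaacagatgagac

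The beaded filament collagens, type VI, form a fine network next to basement membranes around vessels, nerves and fibroblasts, from an alpha1 and an alpha2 chain with a further chain that varies. Of the 6 genes 2 fell in CVST+Ligation and 3 in 4-PBA, both against CVST, beside 4.18% and 7.33% of all genes, and none rose. Col6a1 measured 50.1, 31.9 and 67.8 CPM in CVST, 30.04, 16.9 and 24.0 CPM in CVST+Ligation and 23.5, 30.1 and 14.3 CPM in 4-PBA. Col6a2 measured 24.1, 23.0 and 30.5 CPM in CVST, 13.8, 18.1 and 13.8 CPM in CVST+Ligation and 14.4, 17.8 and 10.7 CPM in 4-PBA. For each of these genes the 3 CVST libraries lay above all 6 libraries of ligated mice, while CVST+Ligation and 4-PBA overlapped.

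Col6a1 fell to 0.474 of its CVST level in CVST+Ligation (log2 fold change -1.08 ± 0.35, adjusted p = 0.381) and to 0.453 in 4-PBA (log2 fold change -1.14 ± 0.35, adjusted p = 0.165). Col6a2 fell to 0.589 (log2 fold change -0.76 ± 0.22, adjusted p = 0.331) and to 0.554 (log2 fold change -0.85 ± 0.22, adjusted p = 0.122). These 4 calls were made under each of the 19 alternatives, the loss of any 1 library included. Against CVST+Ligation, 4-PBA gave -0.06 ± 0.34 and -0.09 ± 0.22, and neither passed. The ratio of Col6a1 to Col6a2 in FPKM was 2.10 ± 0.494 (SD) in CVST, 1.79 ± 0.701 in CVST+Ligation and 1.71 ± 0.216 in 4-PBA, with ranges that overlapped. Both genes lie on chromosome 10 on the minus strand, 85161 bases apart, and their upstream letters are shown for comparison. Of Col6a1 only the 30 bases before the start (chr10:76726045-76726074) are given, which overlap an annotated exon. Of Col6a2 150 bases (chr10:76623631-76623780) outside annotated exons are given, with no TATAAA in either stretch:

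Col6a1: tctttgcacctccctccctccctccctcca
Col6a2: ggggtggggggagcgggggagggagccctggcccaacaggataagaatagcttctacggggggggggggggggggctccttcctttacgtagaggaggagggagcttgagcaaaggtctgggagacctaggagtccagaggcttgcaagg

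The further chains were read separately. Col6a3, the main partner in most tissues, ranged from 2.31 to 8.63 CPM with overlap in all comparisons (fitted 0.37, -0.23 and 0.14). Col6a4 measured 2.21, 1.37 and 2.77 CPM in CVST, 1.69, 0.361 and 0.176 CPM in CVST+Ligation and 0.704, 0.505 and 0.648 CPM in 4-PBA, with the CVST libraries above all treated ones, and fell to 0.294 of CVST in 4-PBA (log2 fold change -1.77 ± 0.72, adjusted p = 0.282). That call was lost without CVST replicate 1 (-1.72), CVST replicate 3 (-1.55), or any single 4-PBA library (-1.85 to -1.64), and with limma on log2(FPKM + 1) (-0.25). Col6a5 and Col6a6 were below 3 CPM everywhere and passed nowhere. Summed over the 6 genes, type VI collagen stood at 17.8 to 30.8 FPKM in CVST, 12.3 to 14.9 in CVST+Ligation and 8.82 to 16.3 in 4-PBA. The 3 CVST sums lay above all 6 sums of ligated mice.

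Type IV collagen is the scaffold of every basement membrane, and its common form joins Col4a1 and Col4a2 chains. Col4a1 measured 92.9, 99.7 and 86.5 CPM in CVST, 73.5, 67.8 and 71.96 CPM in CVST+Ligation and 59.6, 96.0 and 137 CPM in 4-PBA. Col4a2 measured 92.6, 77.6 and 82.9 CPM in CVST, 57.8, 56.4 and 58.9 CPM in CVST+Ligation and 54.1, 68.9 and 92.3 CPM in 4-PBA. In both genes the 3 CVST+Ligation libraries were tightly grouped below the 3 CVST libraries, and the 4-PBA libraries spread across both other groups, from the lowest level of the 9 in replicate 1 to nearly the highest or the highest in replicate 3. Col4a2 fell to 0.684 in CVST+Ligation against CVST (log2 fold change -0.55 ± 0.18, adjusted p = 0.398) and did so in each of the 19 alternatives. Col4a1 had a fitted change of -0.39 ± 0.25 there, which did not pass (adjusted p = 0.639). Between 4-PBA and CVST+Ligation the changes were 0.46 ± 0.25 and 0.32 ± 0.18 (adjusted p = 1 for both).

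The FPKM ratio of Col4a1 to Col4a2 was 1.11 ± 0.153 (SD) in CVST, 1.23 ± 0.0359 in CVST+Ligation and 1.33 ± 0.201 in 4-PBA. The lowest and highest ratios were 1.003 and 1.49. The 2 genes lie head to head on chromosome 8 and their RefSeq spans overlap at the starts, which is why their windows are shown side by side. Each is read along the strand of its own gene, with the CCAAT box nearest the start in capitals. Both windows overlap an annotated exon. For Col4a1, on the minus strand, the 30 bases at chr8:11312954-11312983 hold it as ATTGG, its complement, 145 bases before the start from which its upstream sequence is counted. That start is 63 bases inside the RefSeq span, so the letters lie 82 bases before the outer end of the span. For Col4a2, on the plus strand, those at chr8:11312761-11312790 hold CCAAT 32 bases before the start, where its span also begins:

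Col4a1: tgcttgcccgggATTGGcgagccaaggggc
Col4a2: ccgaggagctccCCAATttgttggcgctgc

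Of 10 pairs of members within 200000 bases of each other, 3 are head to head, the others being Col4a3 with Col4a4 on chromosome 1 and Col4a5 with Col4a6 on X. The chains Col4a3 to Col4a6, found mainly in kidney, eye and smooth muscle basement membranes, were far scarcer, with Col4a5 from 3.80 to 9.43 CPM, Col4a6 from 1.03 to 3.96 CPM and Col4a4 below 1 CPM, and none passed. Col4a3 lay between 0 and 1.08 CPM and was not tested.

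Col15a1 and Col18a1 are collagens of vessel and epithelial basement membranes, and the end of the Col18a1 chain is the source of endostatin. Col15a1 measured 2.80, 3.64 and 2.495 CPM in CVST, 3.55, 6.803 and 1.76 CPM in CVST+Ligation and 6.56, 14.2 and 6.33 CPM in 4-PBA. It was highest in 4-PBA replicate 2, and the 4-PBA libraries lay above CVST, while CVST+Ligation replicate 2 lay within the range of 4-PBA. The gene rose 3.03-fold in 4-PBA against CVST (log2 fold change 1.60 ± 0.50, adjusted p = 0.175) and 2.24-fold against CVST+Ligation (log2 fold change 1.17 ± 0.49, adjusted p = 1). Without 4-PBA replicate 2 the log2 values were 1.11 and 0.68 and neither passed, and the second call was also lost without CVST replicate 1 (1.18) or 3 (1.17) and without CVST+Ligation replicate 1 (1.096) or 3 (0.81), and with only the 2 groups in the fit (1.17).

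Col18a1 measured 10.03, 6.43 and 6.02 CPM in CVST, 7.27, 42.3 and 8.75 CPM in CVST+Ligation and 11.3, 14.9 and 16.0 CPM in 4-PBA. A single library, CVST+Ligation replicate 2, was far above the rest, and CVST and CVST+Ligation overlapped, whereas the 3 treated libraries lay above CVST without passing the test (0.91 ± 0.60, adjusted p = 0.511). The call in CVST+Ligation against CVST (log2 fold change 1.37 ± 0.60, adjusted p = 0.515) rests on it: without that library the value was 0.09. The call held without CVST+Ligation replicate 1 (1.76) or 3 (1.72) and was lost without any other library, at 1.21 to 1.63 for the CVST and 4-PBA libraries. It was also lost with only the 2 groups in the fit (1.37), with limma on FPKM (0.71 and 0.93 with 1 and 0.1 added before the log) and with gene length taken into account (1.26). Of the 63 genes 6 overlap a counted gene on the other strand. Besides Col4a1 with Col4a2, Col18a1 overlaps Slc19a1, Col9a3 overlaps Tcfl5, Col10a1 overlaps Nt5dc1, and Lamb3 overlaps Hsd11b1 over 42442 bases and G0s2. The methods name an orientation mode for the alignment, and whether counting used strand is not given in the sources used here, so the values of these genes are less certain.

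**Figure D4:**
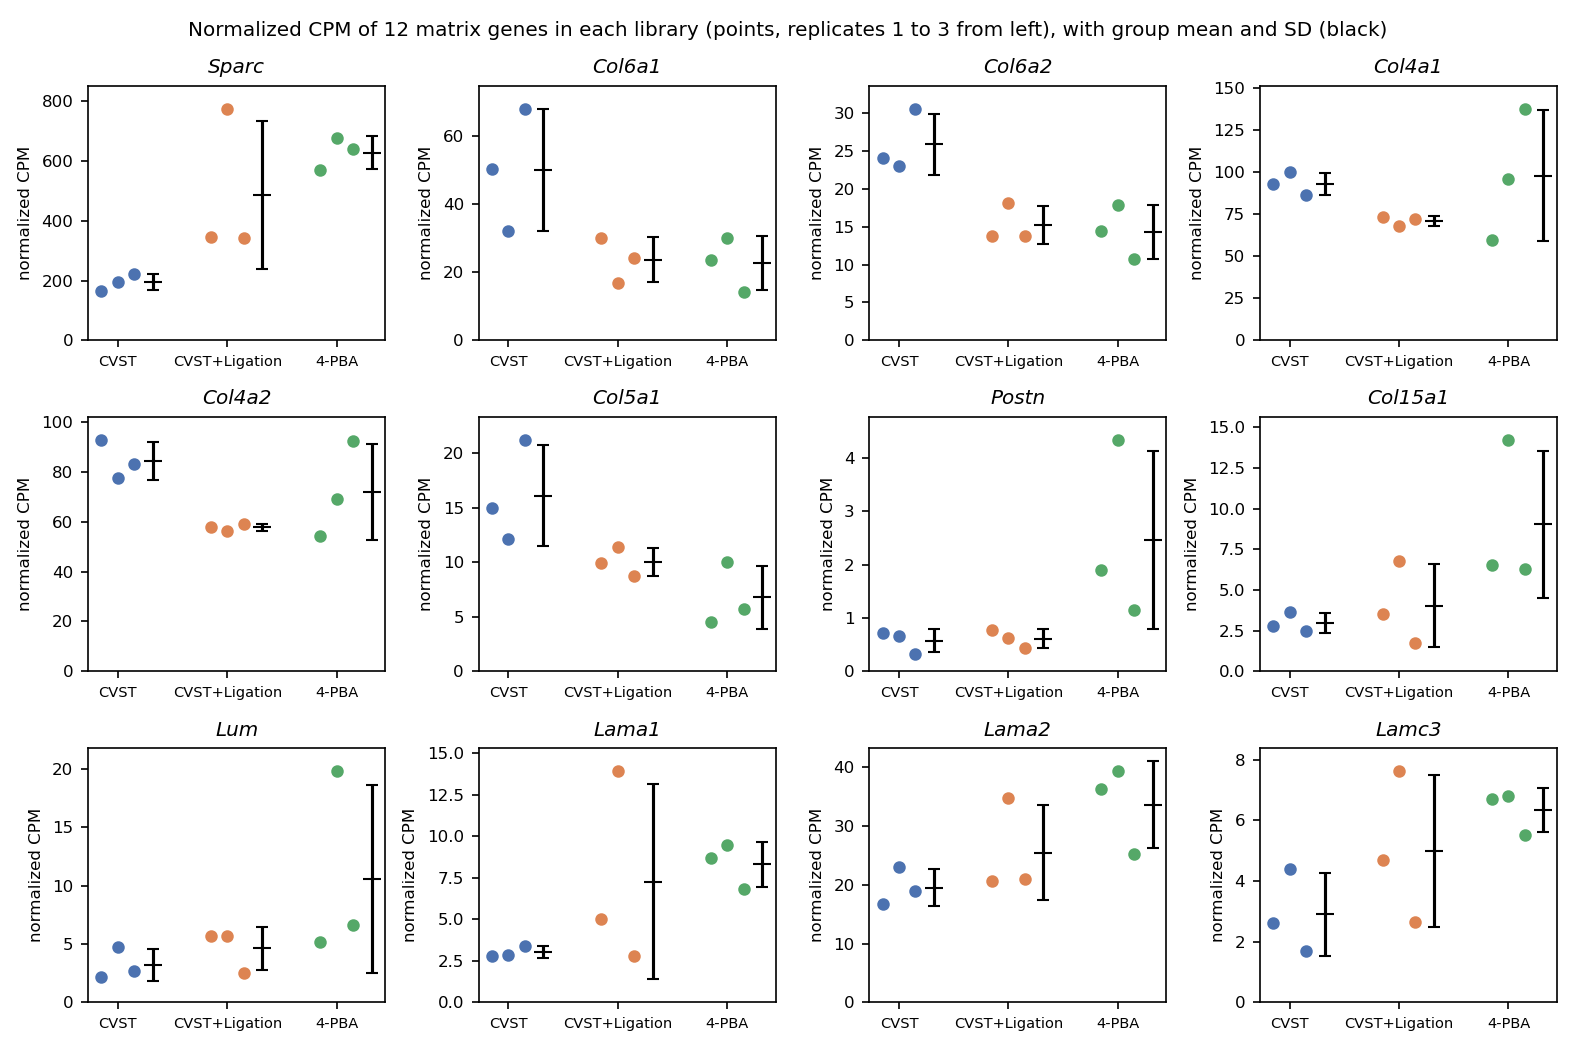
Normalized CPM (y axes from 0) of 12 matrix genes in each library, by group, with the group mean and SD in black. Sparc is lowest and Col6a1 and Col6a2 are highest in the 3 CVST libraries, Col4a2 is lowest and closely grouped in CVST+Ligation apart from 1 treated library, and Postn is highest in the 3 treated libraries.

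Fibrillar collagens give tissues their tensile strength, and types I and III dominate in the dura and the walls of larger vessels. Col1a2 measured 30.04, 37.1 and 15.5 CPM in CVST, 33.3, 79.7 and 20.2 CPM in CVST+Ligation and 39.7, 112 and 24.5 CPM in 4-PBA. Col1a1 measured 19.9, 24.8 and 14.4 CPM in CVST, 26.7, 43.1 and 12.4 CPM in CVST+Ligation and 21.2, 37.9 and 16.1 CPM in 4-PBA. Col3a1, their usual partner in soft tissue, ranged from 8.08 to 42.3 CPM. In these genes CVST+Ligation replicate 2 and 4-PBA replicate 2 stood above all other libraries, and the remaining members of their groups overlapped with CVST. None of the 3 passed in any comparison (fitted changes of Col1a2, Col1a1 and Col3a1 against CVST of 0.69, 0.47 and 0.37 in CVST+Ligation and of 1.09, 0.34 and 0.65 in 4-PBA). The summed fibroblast markers were highest in the same 2 libraries, 299.7 and 265 FPKM, and their part in these levels was not tested. The FPKM ratio of Col1a2 to Col1a1, whose chains join at a fixed ratio in type I collagen, was 1.44 ± 0.260 in CVST, 1.67 ± 0.325 in CVST+Ligation and 2.23 ± 0.788 in 4-PBA (SD). The 3 ratios of 4-PBA, from 1.61 to 3.12, lay above those of CVST, from 1.14 to 1.596, and CVST+Ligation, from 1.32 to 1.96, overlapped both.

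Of the type V and type XI chains, which start and size the fibrils, Col5a1 fell and Col5a2 and Col11a2 rose. Col5a1 measured 15, 12.2 and 21.2 CPM in CVST, 9.96, 11.4 and 8.79 CPM in CVST+Ligation and 4.55, 10.1 and 5.75 CPM in 4-PBA, lower in every 4-PBA library than in every CVST library. It fell to 0.422 of CVST in 4-PBA (log2 fold change -1.24 ± 0.32, adjusted p = 0.119) and passed in each of the 19 alternatives, and in CVST+Ligation, where the groups did not overlap either, the change was -0.68 ± 0.32 (adjusted p = 0.529). Col5a2 measured 8.20, 5.90 and 5.10 CPM in CVST, 8.18, 12.1 and 5.14 CPM in CVST+Ligation and 8.24, 15.1 and 14.3 CPM in 4-PBA and rose 1.96-fold in 4-PBA against CVST (log2 fold change 0.97 ± 0.36, adjusted p = 0.233), just clear of the highest CVST library. This call was lost without CVST replicate 2 (0.93), CVST replicate 3 (0.81), 4-PBA replicate 2 (0.81) or 4-PBA replicate 3 (0.87).

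Col11a2 measured 6.799, 7.36 and 11.7 CPM in CVST, 12.6, 22.6 and 11.03 CPM in CVST+Ligation and 23.7, 17.4 and 12.9 CPM in 4-PBA. It rose 2.09-fold in 4-PBA against CVST (log2 fold change 1.07 ± 0.35, adjusted p = 0.192), with no overlap, and 1.79-fold in CVST+Ligation (log2 fold change 0.84 ± 0.35, adjusted p = 0.485), where the groups overlapped. The first call was lost without 4-PBA replicate 1 (0.83), and the second without CVST replicate 1 (0.69), CVST replicate 2 (0.74) or CVST+Ligation replicate 2 (0.46). The second was also lost with limma on FPKM (0.58 and 0.81) and with gene length taken into account (0.67). Col5a3, Col11a1, Col27a1, Col2a1 and Col24a1 passed nowhere, the last 2 with at most 2.40 CPM. Over the 11 fibrillar genes the median log2 fold change was 0.37 in CVST+Ligation and 0.34 in 4-PBA, both against CVST.

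Fibril-associated collagens sit on the surface of fibrils and join them to other matrix. The most abundant per length was Col9a3, at 11.9, 12.2 and 16.8 CPM in CVST, 9.79, 15.8 and 13.4 CPM in CVST+Ligation and 26.4, 13.3 and 13.1 CPM in 4-PBA. Col16a1 followed, at 41.7, 27.4 and 37.5 CPM in CVST, 26.4, 19.6 and 35.5 CPM in CVST+Ligation and 15.4, 25.9 and 50.5 CPM in 4-PBA. Neither passed in any comparison, and Col16a1 held both its lowest and its highest level within the 4-PBA group. Col14a1, a product of fibroblasts, measured 0.680, 1.86 and 1.08 CPM in CVST, 1.90, 3.04 and 1.05 CPM in CVST+Ligation and 2.49, 12.1 and 0.991 CPM in 4-PBA, with the 1 high value in 4-PBA replicate 2. Its rise in 4-PBA against CVST (log2 fold change 2.10 ± 0.85, adjusted p = 0.277) became 0.51 without that library and was no longer called, as was also the case without CVST replicate 1 (1.81) or 3 (2.01) and with limma on FPKM (0.55 and 1.25). The other 6 genes, Col9a1, Col9a2, Col12a1, Col19a1, Col20a1 and Col22a1, passed nowhere.

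Among network-forming and anchoring collagens, Col26a1 measured 0.935, 2.39 and 1.30 CPM in CVST, 0.827, 1.55 and 1.49 CPM in CVST+Ligation and 2.55, 2.65 and 1.94 CPM in 4-PBA. Col8a1, of vessel walls and of the corneal endothelium, measured 1.19, 3.19 and 0.976 CPM in CVST, 1.65, 2.11 and 1.49 CPM in CVST+Ligation and 2.38, 1.77 and 1.56 CPM in 4-PBA. Neither passed. Col28a1, a collagen of peripheral nerve sheaths, measured 0.425, 0.665 and 1.30 CPM in CVST, 1.69, 0.773 and 1.23 CPM in CVST+Ligation and 0.975, 17.1 and 0.267 CPM in 4-PBA. Its call in 4-PBA against CVST (log2 fold change 2.95 ± 1.24, adjusted p = 0.297) came from 4-PBA replicate 2 alone, since the other 2 treated libraries lay within or below the CVST range and the value without it was -0.38. Leaving out any CVST library, or CVST+Ligation replicate 1 or 3, also ended the call, at 2.65 to 3.46, as did only the 2 groups in the fit (2.96) and limma on FPKM (0.74 and 1.2). Col7a1, Col8a2 and Col10a1 passed nowhere.

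Transmembrane collagens remain anchored in the cell that makes them. Col25a1, a neuronal collagen first isolated from amyloid plaques, measured 43.3, 7.80 and 12.4 CPM in CVST, 29.7, 11.03 and 25.5 CPM in CVST+Ligation and 41.6, 28.9 and 13.4 CPM in 4-PBA. In each group the highest level was more than 2 times the lowest, and its fitted changes were 0.06 ± 0.64, 0.34 ± 0.64 and 0.40 ± 0.64. Col23a1 measured 1.57, 2.35 and 5.42 CPM in CVST, 6.41, 4.28 and 4.18 CPM in CVST+Ligation and 4.66, 6.56 and 1.91 CPM in 4-PBA, and like Col13a1 and Col17a1 it passed nowhere.

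**Figure D5:**
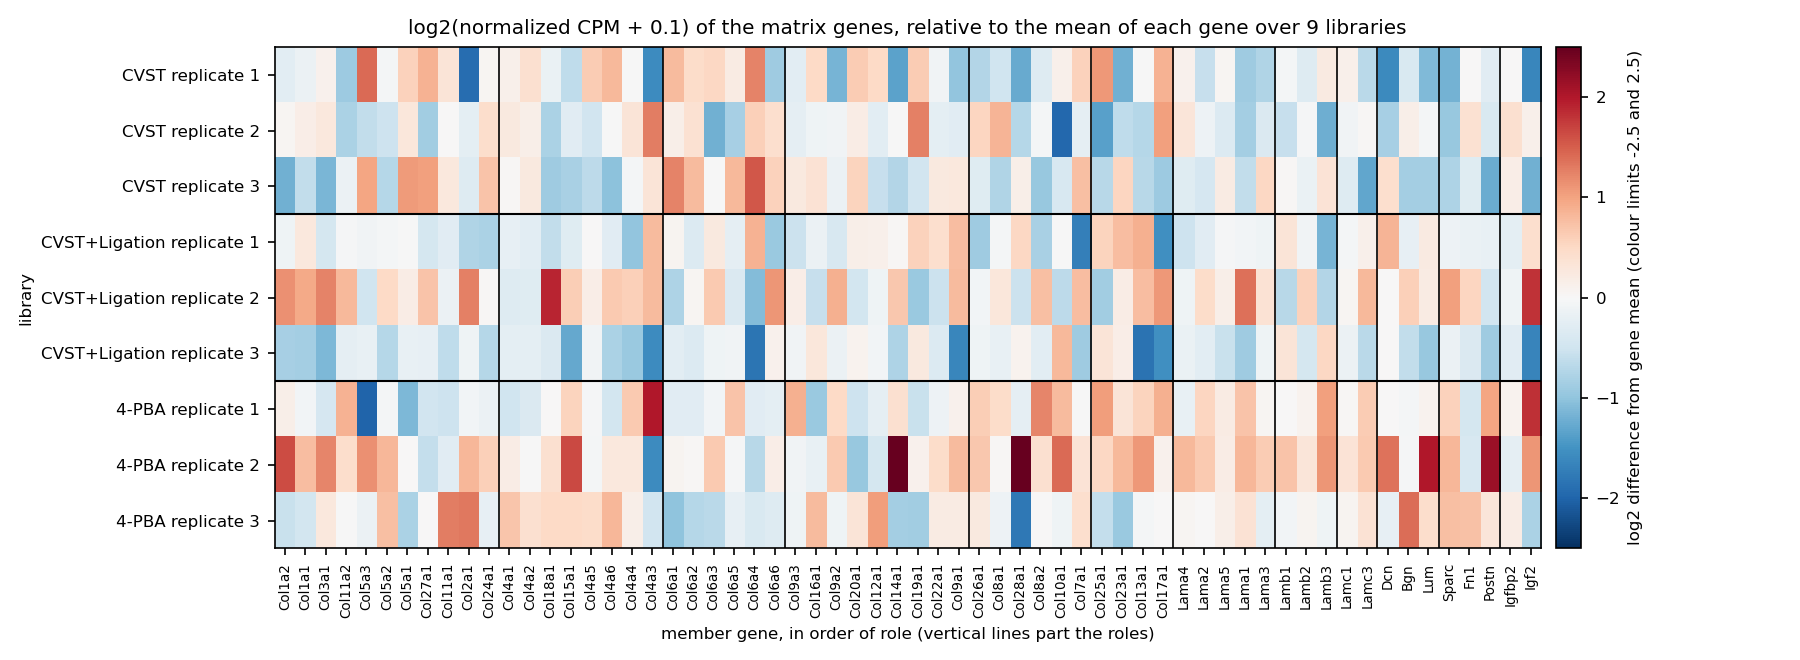
log2(normalized CPM + 0.1) of the matrix genes reported by name (x axis, by role) in the 9 libraries (y axis), as the difference from the mean of each gene. Red is above and blue below that mean, with colours capped at 2.5. Many genes are red together in 4-PBA replicate 2, Col14a1, Col28a1, Lum and Postn most of all, and Col18a1 and Igf2 are red in CVST+Ligation replicate 2.

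Laminin alpha chains decide which receptors a laminin binds. Lama2, the chain of astrocyte and pericyte laminin, measured 16.7, 23.0 and 18.9 CPM in CVST, 20.7, 34.8 and 21.0 CPM in CVST+Ligation and 36.4, 39.3 and 25.3 CPM in 4-PBA. Lama4, the chain shared by all endothelium, measured 22.9, 26.0 and 17.0 CPM in CVST, 14.6, 19.7 and 18.8 CPM in CVST+Ligation and 18.5, 37.3 and 21.9 CPM in 4-PBA. Lama2 was higher in each treated library than in each CVST library and rose 1.72-fold (log2 fold change 0.78 ± 0.26, adjusted p = 0.192), a call made whichever library was left out but not with gene length taken into account (0.58), while Lama4 passed nowhere (-0.31, 0.55 and 0.24). Per length, Lama2 stood at 0.515 ± 0.108 of Lama4 in CVST, 0.812 ± 0.184 in CVST+Ligation and 0.787 ± 0.282 in 4-PBA (SD).

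Lama1, the chain of the meninges and of leptomeningeal sheaths around vessels, measured 2.80, 2.88 and 3.42 CPM in CVST, 5.04, 13.9 and 2.81 CPM in CVST+Ligation and 8.67, 9.47 and 6.82 CPM in 4-PBA. The 3 CVST libraries were nearly equal and lay below the 3 treated ones, and CVST+Ligation was split, with replicate 3 at the CVST level and replicate 2 the highest of all. Lama1 rose 2.74-fold in 4-PBA against CVST (log2 fold change 1.45 ± 0.50, adjusted p = 0.209), a call kept in each of the 19 alternatives. Its rise in CVST+Ligation (log2 fold change 1.25 ± 0.50, adjusted p = 0.465) was lost without any 1 of the CVST libraries (1.196 to 1.32) and without CVST+Ligation replicate 2 (0.37). It was also lost with only the 2 groups in the fit (1.26), with limma on FPKM (0.38 and 0.84) and with gene length taken into account (1.06). Lama3 and Lama5, the latter of endothelium and epithelia, passed nowhere, and Lama5 stayed between 10.3 and 17.6 CPM.

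No beta chain passed in any comparison. Lamb1 measured 45.9, 31.97 and 48.8 CPM in CVST, 59.3, 29.4 and 59.6 CPM in CVST+Ligation and 48.3, 77.8 and 45.6 CPM in 4-PBA. Lamb2 measured 36.1, 44.3 and 40.04 CPM in CVST, 42.3, 67.5 and 33.0 CPM in CVST+Ligation and 48.1, 55.5 and 47.3 CPM in 4-PBA. CVST+Ligation replicate 2 held the lowest Lamb1 and the highest Lamb2, and Lamb3, less certain for its overlap with Hsd11b1, lay below 4 CPM throughout. Of the gamma chains, Lamc1, the partner in most laminins, measured 57.8, 50.1 and 42.2 CPM in CVST, 51.0, 54.5 and 47.9 CPM in CVST+Ligation and 54.1, 67.7 and 55.9 CPM in 4-PBA and passed nowhere.

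Lamc3, a rarer gamma chain of brain and vessel membranes, measured 2.63, 4.39 and 1.68 CPM in CVST, 4.71, 7.63 and 2.64 CPM in CVST+Ligation and 6.72, 6.82 and 5.53 CPM in 4-PBA and rose 2.18-fold in 4-PBA against CVST (log2 fold change 1.12 ± 0.44, adjusted p = 0.258), with no overlap. That call was lost without CVST replicate 1 (1.06) or 3 (0.84) and without 4-PBA replicate 1 (1.09) or 2 (1.07). Over the 11 laminin genes 10 fitted changes were above 0 in 4-PBA against CVST, with a median of 0.32.

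The small leucine-rich proteoglycans bind fibrils and growth factors, and in the brain they come mainly from fibroblasts. Dcn, encoding decorin, measured 18.0, 31.0 and 72.9 CPM in CVST, 98.5, 54.99 and 55.2 CPM in CVST+Ligation and 55.2, 139.9 and 47.6 CPM in 4-PBA. Bgn, encoding biglycan, measured 15.3, 21.9 and 11.1 CPM in CVST, 17.3, 30.05 and 13.0 CPM in CVST+Ligation and 19.1, 19.4 and 52.5 CPM in 4-PBA. Both overlapped between all groups, with the highest decorin in 4-PBA replicate 2 and the highest biglycan in 4-PBA replicate 3, and neither passed (4-PBA against CVST: 0.995 ± 0.55, adjusted p = 0.424, and 0.91 ± 0.46, adjusted p = 0.379). Lum, encoding lumican, measured 2.21, 4.74 and 2.66 CPM in CVST, 5.70, 5.67 and 2.51 CPM in CVST+Ligation and 5.202, 19.8 and 6.67 CPM in 4-PBA. It rose 3.29-fold in 4-PBA against CVST (log2 fold change 1.72 ± 0.56, adjusted p = 0.192), and without 4-PBA replicate 2, the 1 high library, the value was 0.89 and did not pass. Lum and Dcn are neighbours on chromosome 10, 47337 bases apart on the same strand.

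Igf2 and Igfbp2 stand for the growth factor axis of the meninges and choroid plexus. Igf2, an insulin-like growth factor, measured 1.83, 6.39 and 2.495 CPM in CVST, 7.85, 20.9 and 1.80 CPM in CVST+Ligation and 21.0, 12.7 and 3.35 CPM in 4-PBA. In each group the highest level was more than 3 times the lowest, and the highest of all were in 4-PBA replicate 1 and CVST+Ligation replicate 2. The first of these also held the highest choroid plexus sum (7530.1 FPKM), whereas the second was among the lowest in that sum (186 FPKM). The part of the choroid plexus in these levels was not tested. No comparison passed (1.51 ± 0.88, 0.28 ± 0.85 and 1.78 ± 0.89). Igfbp2, a binding protein for insulin-like growth factors, measured 59.1, 77.2 and 65.4 CPM in CVST, 49.7, 54.7 and 47.9 CPM in CVST+Ligation and 62.7, 50.2 and 66.8 CPM in 4-PBA. It fell to 0.755 in CVST+Ligation against CVST (log2 fold change -0.41 ± 0.15, adjusted p = 0.431), with no overlap between the groups and replicate 2 of CVST+Ligation the nearest to CVST. That call was lost without CVST replicate 2 (-0.29), CVST+Ligation replicate 1 (-0.40) or CVST+Ligation replicate 3 (-0.37). It depended on the scaling too, and did not pass with total counts in place of TMM (-0.37) or with limma on FPKM (-0.35 and -0.36).

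Many of the high levels lay in a single library. 4-PBA replicate 2 was the highest of the 9 for 21 of the 62 tested matrix genes (33.9%), beside 8.28% of all genes tested, and CVST+Ligation replicate 2 for 11 (17.7%), beside 17.3%. Any library of the 4-PBA group was the highest for 34 (54.8%), beside 24.5%. For 6 genes, Col28a1, Col14a1, Lum, Col18a1, Postn and Col15a1, the highest library was more than 2 times the next, and in 5 of these it was 4-PBA replicate 2.

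The enzymes and partners of the same pathway were read in the same fit, where 5.47% of all genes rose and 4.18% fell in CVST+Ligation against CVST, 1.81% and 1.42% in 4-PBA against CVST+Ligation, and 8.07% and 7.33% in 4-PBA against CVST. Of 20 tested genes for collagen folding, hydroxylation and crosslinking, work that starts in the endoplasmic reticulum, none passed in CVST+Ligation against CVST or in 4-PBA against CVST+Ligation. P4ha2, a prolyl hydroxylase subunit, and P3h4, which assists collagen modification, rose in 4-PBA against CVST (0.64 ± 0.23 and 0.48 ± 0.18), 10% of the list beside 8.07% of all genes. Serpinh1, the collagen-specific chaperone of the endoplasmic reticulum, named for its role after its values were seen, ranged from 33.3 to 51.1 CPM across the 9 libraries and passed nowhere. The medians of this list were -0.06, 0.13 and 0.09 in the 3 comparisons. Among 9 tested genes of procollagen processing, Adamts2, which trims the amino end of procollagen, measured 6.25, 6.43 and 9.44 CPM in CVST, 17.6, 35.7 and 15.1 CPM in CVST+Ligation and 18.4, 18.2 and 15.1 CPM in 4-PBA, with all CVST libraries below all others. It rose in CVST+Ligation (log2 fold change 1.63 ± 0.33, adjusted p = 0.2502) and in 4-PBA (log2 fold change 1.23 ± 0.33, adjusted p = 0.127), both against CVST. Tll1 rose in CVST+Ligation (1.47 ± 0.36) and fell in 4-PBA against CVST+Ligation (-0.99 ± 0.36), and Pcolce2 rose in 4-PBA against CVST (1.36 ± 0.38).

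Of 13 basement membrane partners, Egfl6, which binds integrins at such membranes, measured 0.892, 1.51 and 1.52 CPM in CVST, 3.97, 7.21 and 3.12 CPM in CVST+Ligation and 5.15, 4.25 and 4.76 CPM in 4-PBA and rose in CVST+Ligation (log2 fold change 1.86 ± 0.38, adjusted p = 0.2502) and 4-PBA (log2 fold change 1.85 ± 0.38, adjusted p = 0.0675), both against CVST. Against CVST, 5 rose (38.5%, beside 8.07% of all genes) and 0 fell in 4-PBA, with Nid1, the nidogen that links laminin to type IV collagen (1.01 ± 0.35) and Fbln5 (1.498 ± 0.52) beside Egfl6. Against CVST+Ligation, Fbln2 (1.21 ± 0.43) and Nid2 (0.59 ± 0.25) rose in 4-PBA. Of 22 tested matrix proteases and their inhibitors, 1 rose and 1 fell in CVST+Ligation against CVST, namely Timp3, an inhibitor bound to matrix (0.71 ± 0.25), and Plau, urokinase (-1.17 ± 0.49). Those that rose in 4-PBA against CVST numbered 5, where 8.07% of all genes rose and 27.3% of the list passed in either direction beside 15.4%, among them Timp3 (1.09 ± 0.25), Mmp15 (1.15 ± 0.31) and Mmp14 (0.61 ± 0.20), and 1 fell, Mmp17 (-0.92 ± 0.40), named after its values were seen. Mmp24 fell in 4-PBA against CVST+Ligation, the 1 call of this list there (-0.63 ± 0.26).

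Of 26 matrix receptors, Sdc3 (0.66 ± 0.17) and the laminin-binding integrin chain Itga3 (1.19 ± 0.32) rose in CVST+Ligation against CVST, and in 4-PBA against CVST 5 rose and 0 fell (19.2% called, beside 15.4% of all genes called and 8.07% that rose), with the smallest p in Sdc3 (0.58 ± 0.17), Itga3 (1.03 ± 0.32) and the laminin receptor Bcam (1.75 ± 0.56). Bcam also rose in 4-PBA against CVST+Ligation (1.33 ± 0.55), with levels of 20.1, 28.2 and 20.7 CPM in CVST, 29.5, 45.5 and 17.9 CPM in CVST+Ligation and 39.1, 157 and 36.4 CPM in 4-PBA of which the 1 outstanding value is in 4-PBA replicate 2. Of 21 genes of TGF-beta and CCN signalling, Ltbp2 rose in CVST+Ligation (3.21 ± 1.40), where it measured 7.47 CPM in replicate 2 and below 0.4 CPM in the other 2. Ccn2, a target of that signalling that promotes matrix production, fell in 4-PBA against CVST (-1.89 ± 0.45) and against CVST+Ligation (-1.19 ± 0.44), and Tgfbi rose against CVST+Ligation (1.46 ± 0.62). Ltbp1 (-0.89 ± 0.37) and Tgfb1 (-0.89 ± 0.38) fell against CVST. Of 9 tested partners of the insulin-like growth factors, Igfbp4 measured 67.7, 81.1 and 61.7 CPM in CVST, 26.1, 17.3 and 38.6 CPM in CVST+Ligation and 21.8, 20.5 and 31.2 CPM in 4-PBA and fell in CVST+Ligation (log2 fold change -1.36 ± 0.29, adjusted p = 0.2502) and 4-PBA (log2 fold change -1.52 ± 0.29, adjusted p = 0.0545). Igfbp6 fell in the same comparisons (-1.26 ± 0.30 and -1.60 ± 0.30), and Igfbp5 fell in 4-PBA against CVST+Ligation (-0.80 ± 0.32).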

How the data were processed

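RNA was extracted with TRIzol and sequenced as paired reads of total RNA from 9 brain samples (3 mice per group). Per the labels and methods, the authors filtered reads with fastp, aligned them in an orientation mode of HISAT2 to mm10/GRCm38, assembled with StringTie and quantified with RSEM. Versions, the annotation and the use of strand in counting are not given in the sources used here. The deposited counts are whole numbers per gene. The deposited FPKM values were checked against these counts: they equal counts scaled to library size and to 1 whole-number gene length for each of 17446 genes. The methods call the values TPM, but the columns sum to 780195 to 879696.

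The counts were fitted with edgeR 4.0.16 (R 4.3.3; TMM, filterByExpr, quasi-likelihood F test, 9 libraries in 1 fit, no covariate), with Benjamini-Hochberg adjustment over 14746 genes. The study's methods name no test for the sequencing data. DESeq2 1.42.0 and limma 3.58.1 served as alternatives. On simulated data 77% to 79% of genes changed 2-fold and 95% to 96.9% of genes changed 4-fold were recovered at p below 0.05. The rule for named genes was: every library's value for genes that passed in any comparison and for the 2 most abundant per role, and of the pathway lists the 3 genes with the smallest p. A gene of the set enters the counts but is not reported here. Members, lists and tests were chosen with earlier results of these data known. Nothing in the labels says that replicate numbers pair the mice or mark a batch. The alternatives were other scalings, filters and tests, 2 groups only, a replicate block, a gene length trend and leaving out each library. Libraries of a group differed by more than counting noise. At these depths 3 counts are 0.120 to 0.166 CPM, which covers counting error only.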

Additional observations from a re-analysis of the deposited data

How the results depend on the processing

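Of 27 named differences, 11 were called under all 19 alternatives. Over all 27, 428 recomputed values kept direction and side of the threshold, 84 kept direction but lost the call, and 1 changed sign: Col28a1 in 4-PBA against CVST, at -0.38 without 4-PBA replicate 2 (-0.38 to 3.52 over single libraries left out). In CVST+Ligation against CVST the 8 called genes became 4 with limma on log2(FPKM + 1), 5 with limma on log2(FPKM + 0.1) (beside 9.16% and 9.51% of all genes) and 5 to 10 when single libraries were left out. After adjustment DESeq2 called 1. In 4-PBA against CVST+Ligation the 3 became 5 with DESeq2 and 1 to 14 when single libraries were left out. In 4-PBA against CVST the 16 ranged from 13 to 20 over the settings that left out no single library (beside 13.8% to 17.9% of all genes). They ranged from 11 to 22 when single libraries were left out. After adjustment DESeq2 called 7 there, no filter 1, only the 2 groups compared 2, each limma setting 1, the gene length trend 1, and leaving out single libraries 0 to 2. Over all genes adjusted calls there numbered 18 with edgeR and 855 with DESeq2. The cause was not tested.

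With the replicate number as a block, 7, 3 and 20 matrix genes passed in the order above, beside 11.97%, 3.53% and 17.9% of all genes, and 0, 0 and 0 after adjustment. In that fit Lama1 (1.02), Col11a2 (0.79) and Col18a1 (1.02) in CVST+Ligation against CVST and Col28a1 (1.95) in 4-PBA against CVST did not pass. The numbers were not taken to pair the mice, since correlations of same-numbered deviations ran from -0.05 to 0.32. In 14 of 18 cases a library correlated best, out of the 3 libraries of another group, with the one of its own number. That is a hint of pairing from the data and not from the design.

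Depth limits the 12 genes with fewer than 10 counts in some library, and 3 mice a group limit every test.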

Other observations

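Marker lists of other cell types, read in the same edgeR fit with unadjusted p below 0.05, give further context. Of all genes 5.47% rose and 4.18% fell in CVST+Ligation against CVST, 1.81% and 1.42% in 4-PBA against CVST+Ligation, and 8.07% and 7.33% in 4-PBA against CVST. Of 10 oligodendrocyte precursor markers, 9 rose in 4-PBA and 2 in CVST+Ligation, both against CVST, and none was called between 4-PBA and CVST+Ligation, with summed levels of 97.3 to 101 FPKM in CVST, 112 to 168 in CVST+Ligation and 160.5 to 192 in 4-PBA. Of 11 striatal neuron markers, 10 fell in CVST+Ligation against CVST, 3 rose in 4-PBA against CVST+Ligation, and 2 fell and 1 rose in 4-PBA against CVST (1357 to 2286, 279.7 to 669.8 and 366 to 1779 FPKM). Of 9 tested hypothalamic markers 7 rose in 4-PBA against CVST, 6 rose in 4-PBA against CVST+Ligation, and 2 rose and 1 fell in CVST+Ligation against CVST (9.02 to 63.2, 21.2 to 107 and 611 to 1225 FPKM). Of 11 microglia and macrophage markers, 2 fell in CVST+Ligation (18.2%) and 1 in 4-PBA (9.09%, near the 7.33% of all genes), both against CVST (199 to 237, 149.7 to 187 and 169.7 to 210.5 FPKM). Skull bone and cartilage markers summed to 49.5 to 178, 58.7 to 338 and 77.9 to 502 FPKM. The sums were highest in 4-PBA replicate 3 and CVST+Ligation replicate 2. Of 9 tested, 3 rose in 4-PBA against CVST and 1 rose in 4-PBA against CVST+Ligation. Spp1, Alpl and Acan on this list are expressed by brain cells too, and Matn3 was at 0 in all CVST+Ligation and 4-PBA libraries. The sums are thus not read as bone or cartilage tissue. Of 7 tested skeletal muscle markers, 1 fell in CVST+Ligation and 2 in 4-PBA, both against CVST (221 to 420.5, 216 to 1303 and 338 to 479 FPKM). That list includes Pvalb, which brain neurons express too, so its sums are not read as muscle tissue. The part of these lists in the matrix genes was not tested.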
